A study of Homo sapiens with 2 samples.

Results

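The neuroendocrine lineage genes NEUROD1, INSM1, CHGA, CHGB, SYP, NCAM1, UCHL1, ENO2 and DDC were followed in the lung adenocarcinoma line CL1-0. They were chosen by name, as the probe sets whose platform annotation lists 1 of these 9 symbols and no other symbol. Of the 9 genes, 8 had a probe set under their own symbol, with 17 probe sets in all of 54613 that are not array controls. NEUROD1 had no probe set of this kind in the annotation and was not analysed here. CL1-0 is an established human cell line that the labels describe as type II alveolar cells of lung adenocarcinoma origin. CL1-0 transduced with an FDFT1 vector was 1 sample, and CL1-0 transduced with a control vector was the other. FDFT1 encodes squalene synthase, which commits the mevalonate pathway to sterols. Both lines carried a vector and were held under puromycin for 2 weeks, so cells without a vector were not part of the comparison. No probe set carries FDFT1 as its only symbol in this annotation, so FDFT1 was not analysed here and the overexpression was not checked. RNA of each was measured on 1 Affymetrix expression array, so there is no replicate and no difference below has a p-value.

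Neuroendocrine cells are sparse sensory cells of the airway epithelium that store peptides and amines in dense core granules and release them on stimulation. Small cell lung carcinoma and carcinoid tumours carry this programme, and pathologists use chromogranin, synaptophysin, NCAM1 (CD56) and INSM1 to recognise it. The proneural factor NEUROD1 helps to switch the programme on, INSM1 acts beside it, and the repressor REST and Notch signalling hold it off. An adenocarcinoma line is usually without the full programme, although single genes of it can be on.

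Of the 8 genes on the array, UCHL1, CHGB and CHGA had signals above background on both arrays, SYP on the control array alone, and INSM1, NCAM1, ENO2 and DDC on neither. No detection calls came with the values, so background was read from genes of olfactory, taste and vomeronasal receptors, which cells outside the sensory organs are not known to use widely. Their 132 probe sets, of 105 genes, had a median signal of 2.88 on the FDFT1 array and 3.62 on the control array. The background level was their 95th percentile, a MAS5 signal of 13.7 on the FDFT1 array and 10.9 on the control array. By this rule 5 of the 17 probe sets were above background on at least 1 array, or 29.4%, against 54.2% of all 54613 probe sets. On both arrays 4 were above background, against 45.8% of all probe sets. NCAM1 holds 7 of the 17 probe sets, none of them above background. Of the 54613 probe sets 41091 name 1 gene, as all member probe sets do. Counted by gene the share was 4 of 8, against 65.5% of the 19775 genes named by 1 symbol. Probes differ in affinity, so a signal places a probe set above or within background and does not order genes by transcript number.

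**Figure D1:**
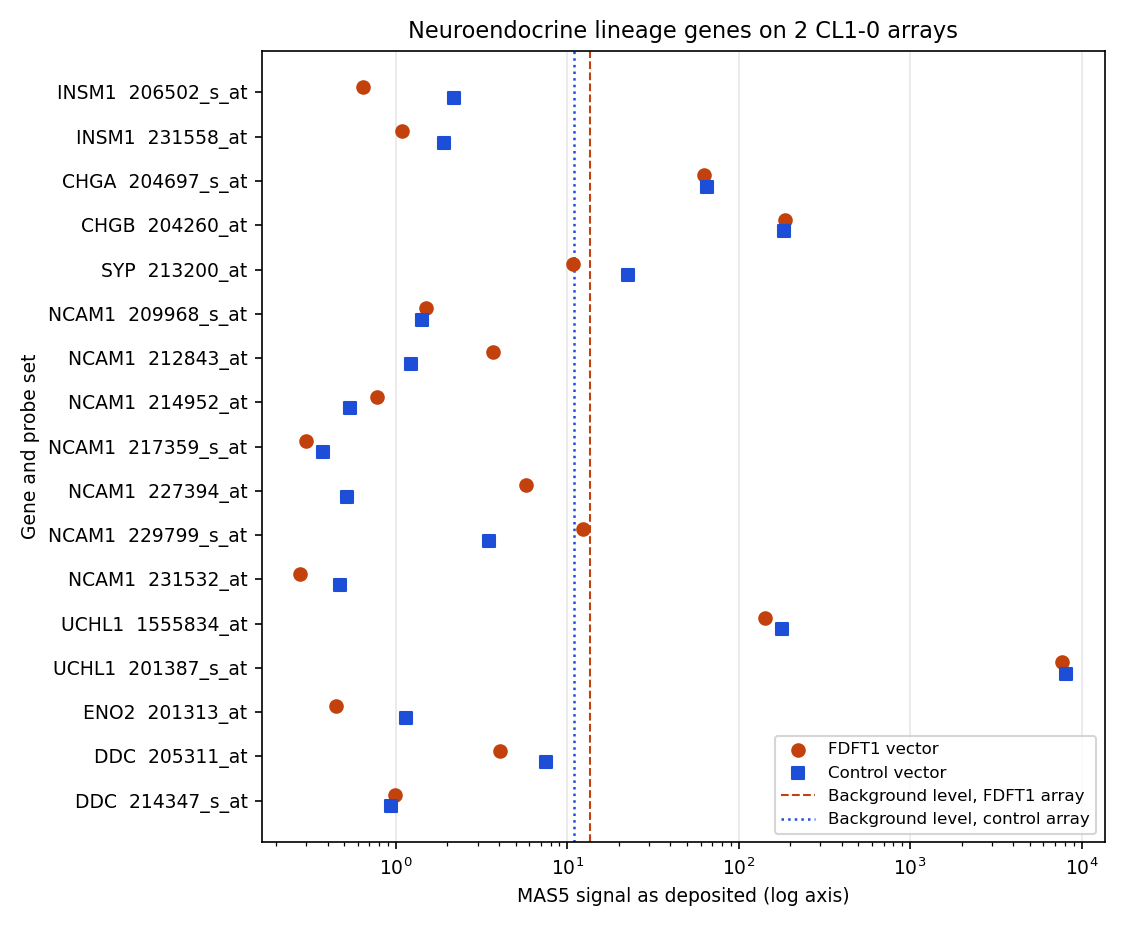
MAS5 signals of the 17 probe sets of neuroendocrine lineage genes (log axis) on the FDFT1 array (circles) and the control array (squares), 1 array each; the vertical lines are the background levels, 13.7 on the FDFT1 array and 10.9 on the control array. The UCHL1, CHGB and CHGA probe sets lie to the right of both lines on both arrays, and the SYP probe set lies to the right of its line on the control array alone.

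The promoters of CHGA, UCHL1, SYP and ENO2 are shown because the first 3 belong to genes with signal above background and ENO2 to a gene without it. They are RefSeq sequences of GRCh38.p14, running from 250 bases before to 50 bases after the start that the RefSeq promoter table uses, on the gene's strand. For UCHL1, SYP and ENO2 that is the start of the gene's span as given with the gene below. For CHGA it lies 486 bases inside the span, at 92923150. The table held entries for 6 of the 9 members. Capitals mark matches, on either strand, to the cyclic AMP response element TGACGTCA, the TATA element TATATAA, the GC box GGGCGG, the E-boxes CAGCTG and CAGATG, and the arms TTCAGCACC and GGACAGC of the RE1 element that REST binds. No 2 matches overlapped in these windows. CHGA lies at chr14:92922900-92923199 (+ strand), UCHL1 at chr4:41256678-41256977 (+ strand), SYP at chrX:49200144-49200443 (- strand) and ENO2 at chr12:6914330-6914629 (+ strand).
CHGA: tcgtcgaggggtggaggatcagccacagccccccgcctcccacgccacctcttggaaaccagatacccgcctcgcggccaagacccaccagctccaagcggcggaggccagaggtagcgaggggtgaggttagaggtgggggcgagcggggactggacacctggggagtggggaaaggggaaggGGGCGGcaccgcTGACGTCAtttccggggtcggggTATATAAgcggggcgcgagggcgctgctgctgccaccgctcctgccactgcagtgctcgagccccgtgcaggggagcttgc
UCHL1: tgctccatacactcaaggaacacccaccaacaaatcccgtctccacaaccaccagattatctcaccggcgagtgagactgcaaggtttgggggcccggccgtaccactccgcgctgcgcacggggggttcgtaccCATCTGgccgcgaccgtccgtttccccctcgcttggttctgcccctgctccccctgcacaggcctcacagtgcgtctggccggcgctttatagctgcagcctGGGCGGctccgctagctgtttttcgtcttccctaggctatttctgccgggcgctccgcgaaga
SYP: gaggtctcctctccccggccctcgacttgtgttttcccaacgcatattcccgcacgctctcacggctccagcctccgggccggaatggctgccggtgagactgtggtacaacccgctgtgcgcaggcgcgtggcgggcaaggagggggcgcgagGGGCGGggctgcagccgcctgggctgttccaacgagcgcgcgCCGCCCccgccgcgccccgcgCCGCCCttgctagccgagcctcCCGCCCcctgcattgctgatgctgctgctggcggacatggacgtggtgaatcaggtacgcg
ENO2: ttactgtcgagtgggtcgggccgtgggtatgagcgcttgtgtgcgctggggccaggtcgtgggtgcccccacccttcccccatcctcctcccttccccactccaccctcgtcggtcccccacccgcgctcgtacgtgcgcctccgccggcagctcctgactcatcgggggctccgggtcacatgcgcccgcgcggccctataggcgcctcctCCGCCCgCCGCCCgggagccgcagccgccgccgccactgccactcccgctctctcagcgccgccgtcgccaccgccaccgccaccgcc
The CHGA window held TGACGTCA at position -54 and TATATAA at position -31, counted from the start the table uses. Of all 35116 promoters in the table, 1.85% held TGACGTCA and 2.57% held TATATAA. The CHGA cyclic AMP response element is known as a control site of this gene in neuroendocrine cells. The UCHL1 window held 1 E-box, read as CAGATG on the opposite strand, at position -115, a sequence in 14.7% of all promoters. The GC box occurred 4 times in the SYP window, 2 times in the ENO2 window and 1 time each for CHGA and UCHL1, and in 45.0% of all promoters. Neither RE1 arm was found in these 4 windows (0.376% of all promoters held TTCAGCACC and 6.03% held GGACAGC), which says only that these letters are not in this stretch.

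Among the transcription factors, INSM1 (chromosome 20, 20368104 to 20370949), a zinc finger repressor required for neuroendocrine differentiation, was within background. Its probe sets had signals of 0.642 and 1.08 on the FDFT1 array and 2.18 and 1.91 on the control array. All 4 values lay under the median of the receptor genes on their array. Where both signals are within background no fold is given.

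Both granule proteins were above background on both arrays. CHGB (chromosome 20, 5911510 to 5925353), chromogranin B, had a signal of 187 on the FDFT1 array and 184 on the control array. CHGA (chromosome 14, 92922664 to 92935285), chromogranin A, had a signal of 63.2 on the FDFT1 array and 65.4 on the control array. Both proteins are acidic matrix components of dense core granules, and CHGA is the usual serum and tissue marker of neuroendocrine tumours. Each gene has 1 probe set, so neither value has a second reading on these arrays. Both exceeded the highest receptor-gene signals, 23.3 on the FDFT1 array and 21.4 on the control array.

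SYP (chromosome X, 49187815 to 49200193), synaptophysin, is a membrane protein of small synaptic-like vesicles. Its single probe set had a signal of 10.8 on the FDFT1 array and 22.8 on the control array. The control value was above the highest receptor-gene signal on its array, and the FDFT1 value was under the background level of its own. It was the only member whose status against background differed between the arrays.

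NCAM1 (chromosome 11, 112961420 to 113278436), the neural cell adhesion molecule, was covered by 7 probe sets, and none was above background. Their signals ran from 0.278 to 12.4 on the FDFT1 array and from 0.375 to 3.51 on the control array. The signal was higher on the FDFT1 array in 5 of the 7, all within background. The brightest, 12.4, was under the background level of 13.7 and just over 12.2, the floor used for differences.

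Of the 3 enzymes, UCHL1 was the one with signal. UCHL1 (chromosome 4, 41256928 to 41268455), the ubiquitin hydrolase also called PGP9.5, is abundant in neurons and neuroendocrine cells and is also made by many carcinomas. Its probe set of the _s_at class, whose probes are shared by several transcripts, had a signal of 7643 on the FDFT1 array and 8167 on the control array. Its other probe set had 143 on the FDFT1 array and 179 on the control array. Both probe sets were far above background on both arrays. ENO2 (chromosome 12, 6914580 to 6923697), the neuron-specific enolase, had a signal of 0.445 on the FDFT1 array and 1.15 on the control array. DDC (chromosome 7, 50458442 to 50565405), the decarboxylase that makes dopamine and serotonin, had 4.03 and 0.994 on the FDFT1 array and 7.56 and 0.940 on the control array, on its 2 probe sets. ENO2 and DDC were therefore within background on both arrays, on 1 and 2 probe sets.

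No member passed the 2-fold rule after centring and floor. The value of SYP is a lower bound, so its change may be larger than the value given. For differences, log2 signals were centred on the median difference of the 2 arrays, which was -0.11 (FDFT1 minus control). Signals under the floor of 12.2, the median of all centred signals, were then raised to it. A gene was measured if its higher signal reached the floor, and was represented by the brightest of its measured probe sets. The number measured equals the number above background by coincidence, since the rules share 12704 genes and each takes 258 that the other does not. Of the 12962 genes measured, 1.11% differed by at least 2-fold, 0.54% being higher on the FDFT1 array and 0.571% lower. Among the members 5 were measured, with 0 at least 2-fold higher and 0 at least 2-fold lower. Their median log2 difference was 0.06, beside -0.0013 for all measured genes.

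UCHL1 was at 0.01 on the log2 scale (FDFT1 minus control), CHGA at 0.06 and CHGB at 0.13. With values as deposited these differences were -0.10, -0.05 and 0.02, so UCHL1 and CHGA had the opposite sign before centring. The scale for judging them is the probe-set error, taken from genes whose 2 brightest probe sets fall in 1 signal range. It was 0.097 for mean log2 signals of 11 and over, where UCHL1 lies, 0.22 from 7 to 9, where CHGB lies, and 0.30 from 5 to 7, where CHGA lies. It covers disagreement between probe sets and leaves out differences between cultures. All 3 differences were smaller than this error. The second UCHL1 probe set was at -0.21, about its error of 0.22, so the probe sets of UCHL1 differed in sign after centring. As deposited both were lower, at -0.10 and -0.32.

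SYP was the 1 member past the error, of 5 measured, while 33.1% of all measured genes passed it in either direction. Its difference was -0.85, at least 1.80-fold lower on the FDFT1 array, a lower bound since the FDFT1 signal was under the floor. The error for mean log2 signals under 5 is 0.48, and in that range 27.4% of the 2847 genes differed by at least 0.5 in either direction. Without the floor SYP was at -0.97, and as deposited, without floor or centring, at -1.07. NCAM1 was at 0.07 against the floor, with neither signal above background.

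**Figure D2:**
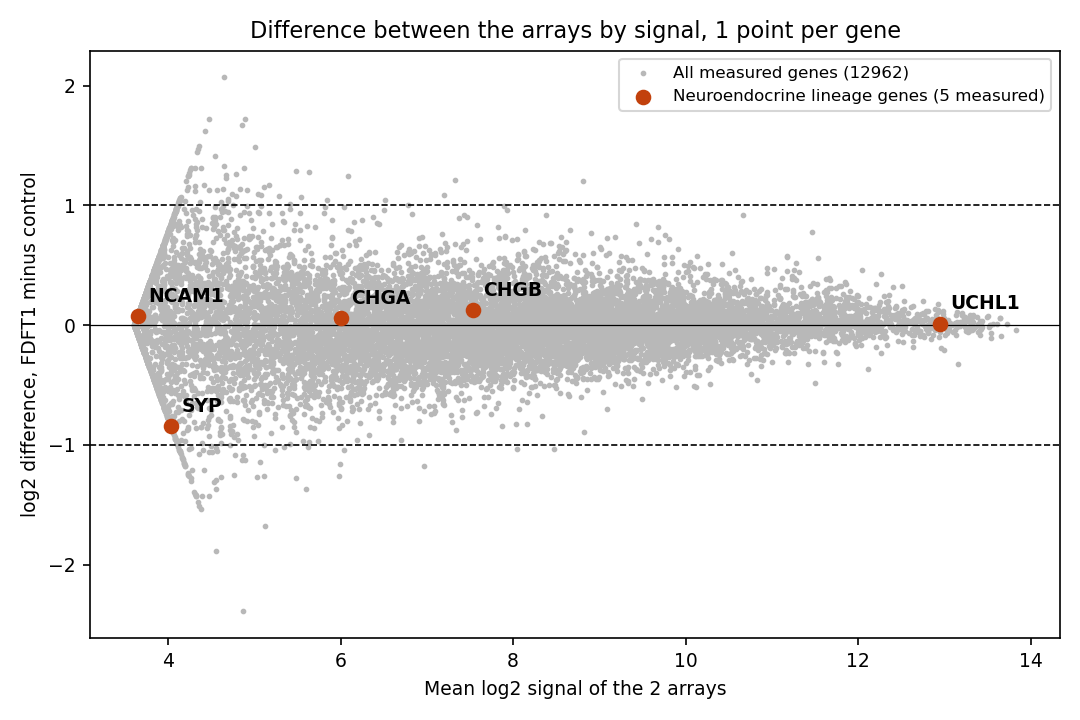
The log2 difference (FDFT1 minus control, after centring and floor) against the mean log2 signal for 12962 measured genes (grey) and the 5 measured neuroendocrine lineage genes (orange); dashed lines mark 2-fold. UCHL1, CHGB, CHGA and NCAM1 lie between 0.01 and 0.13, and SYP lies at -0.85 among dim genes, where the spread is wide.

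The genes that act above and around these markers were compared as lists. Other neuroendocrine transcription factors were above background for 14 of 28 genes on the array, against 65.5% of all genes. SOX2 is a stem cell factor that is amplified in some lung tumours. Its brightest probe set had 3572 on the FDFT1 array and 3906 on the control array, a difference of -0.02 (error 0.097). Its other measured probe sets had 649 and 106 on the FDFT1 array and 812 and 157 on the control array. After centring 0 of 3 measured SOX2 probe sets were higher. NKX2-1, a lung lineage factor, had 29.3 on the FDFT1 array and 31.1 on the control array on its brighter probe set. NKX2-2, a factor of endocrine cells, had 67.6 on the FDFT1 array and 88.8 on the control array. SOX1, a neural stem cell factor, was at 0.73 on 1 measured probe set (149 on the FDFT1 array, 96.7 on the control array, error 0.30). MYCL, amplified in some small cell carcinomas, was at -0.90 (12.8 on the FDFT1 array, 25.6 on the control array, error 0.48), and its other measured probe set had the opposite sign. ISL1, a factor of motor neurons and endocrine cells, was at 0.29 against the floor. The list's median difference was -0.0045 over 13 measured genes, and none reached 2-fold.

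Of 21 granule and prohormone processing genes on the array, CHGA and CHGB among them, 14 were above background, against 65.5% of all genes. PAM, which amidates peptide hormones, had a signal of 1116 on the FDFT1 array and 1136 on the control array, a difference of 0.08 (error 0.16). SCG2, secretogranin II, had 0.953 on the FDFT1 array and 2.87 on the control array, within background. PTPRN, a granule membrane protein, was at 0.61 and HID1, which acts in granule formation, at 0.31, each against a control signal under the floor. SLC18A2, the vesicular monoamine transporter, was at -0.96 (12.3 on the FDFT1 array, 25.6 on the control array, error 0.48). SYT7, a calcium sensor of exocytosis, was the list's 1 gene at least 2-fold different, at -1.06 (14.9 on the FDFT1 array, 33.4 on the control array, error 0.48). With the mean of its 2 measured probe sets SYT7 was at -0.54.

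Synaptic vesicle and exocytosis genes, the list that holds SYP, were above background for 22 of 30 genes, against 65.5% of all genes. The list had 16 of 22 measured genes below 0, with a median of -0.12, and none at least 2-fold different. By more than the probe-set error 8 were lower and 1 higher, against 16.5% and 16.6% of all measured genes. After quantile or loess scaling 7 were lower and 0 higher. Besides SYP the lowest was SYN2, a synapsin that tethers vesicles, at -0.80 (17.8 on the FDFT1 array, 33.3 on the control array, error 0.48), with 1 of 3 measured probe sets higher. VAMP2, a vesicle SNARE protein, was at -0.67 (48.4 on the FDFT1 array, 82.7 on the control array, error 0.30) with 0 of 3 probe sets higher. The target SNARE protein SNAP25 was at -0.40 (56.7 on the FDFT1 array, 80.5 on the control array, error 0.30) with 0 of 2 higher. VAMP2 and SNAP25 were picked after their values were seen, and 6 of the 22 measured genes were above 0. The highest were SV2B, a vesicle glycoprotein, at 0.49 and SYN1 at 0.46, each with 1 of 2 measured probe sets higher. SYPL1, a relative of synaptophysin found in most cells, was at -0.11 (1649 on the FDFT1 array, 1916 on the control array, error 0.16).

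Few peptide hormones had signal. Of 22 genes on the array 6 were above background, or 27.3%, against 65.5% of all genes. GRP, gastrin-releasing peptide and the classical product of pulmonary neuroendocrine cells, had a signal of 0.582 on the FDFT1 array and 3.37 on the control array. CALCA, which encodes calcitonin and CGRP, had 14.1 on the FDFT1 array and 1.56 on the control array on the brightest of its 4 probe sets, at the edge of background. NTS, neurotensin, had 1220 on the FDFT1 array and 1193 on the control array, a difference of 0.14 (error 0.16). ADM, adrenomedullin, which many cell types make, had 753 on the FDFT1 array and 706 on the control array, a difference of 0.20. GAST, gastrin, was at -0.45 (14.3 on the FDFT1 array, 21.0 on the control array). NMB, neuromedin B, was at -1.05 on its 1 probe set (14.2 on the FDFT1 array, 31.5 on the control array, error 0.48), the list's 1 gene past 2-fold.

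In the amine pathway around DDC, 8 of 15 genes on the array were above background, against 65.5% of all genes, and none was 2-fold different. SPR, sepiapterin reductase, which completes the tetrahydrobiopterin cofactor of the aromatic amino acid hydroxylases, had a signal of 1123 on the FDFT1 array and 1280 on the control array, a difference of -0.08. MAOA, which degrades amines, was at -0.31 (138 on the FDFT1 array, 184 on the control array, error 0.22) with 1 of 3 probe sets higher. TPH1, the hydroxylase that starts serotonin synthesis, was at -0.25 and PNMT, which makes adrenaline, at 0.38, each at signals under 16 on both arrays. The noradrenaline transporter gene SLC6A2 was at 0.16 against the floor and within background.

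Neuronal cytoskeleton and RNA-binding genes, taken as 1 list, were above background for 16 of 21, against 65.5% of all genes. TUBB3, the neuronal class of beta tubulin, had a signal of 5411 on the FDFT1 array and 5965 on the control array, a difference of -0.03 (error 0.097). Tubulin genes are close in sequence and the TUBB3 probe sets are of the _x_at class, whose probes can match other transcripts, so this signal may be shared with other tubulins. NEFM, a neurofilament, was at 0.78 on 1 measured probe set (34.2 on the FDFT1 array, 21.5 on the control array, error 0.48). KIF5C, a neuronal kinesin, was at 0.33, 1 of its 3 probe sets being higher, and KIF1A, which carries synaptic vesicle precursors, at -0.74 (159 on the FDFT1 array, 287 on the control array, error 0.22) with 0 of 2 higher. NOVA2, a neuronal splicing factor, was at -0.86 with 1 of 2 probe sets higher. The list's median was -0.02. By more than the error 4 of 16 measured genes were higher and 6 lower, against 16.6% and 16.5% of all measured genes.

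**Figure D3:**
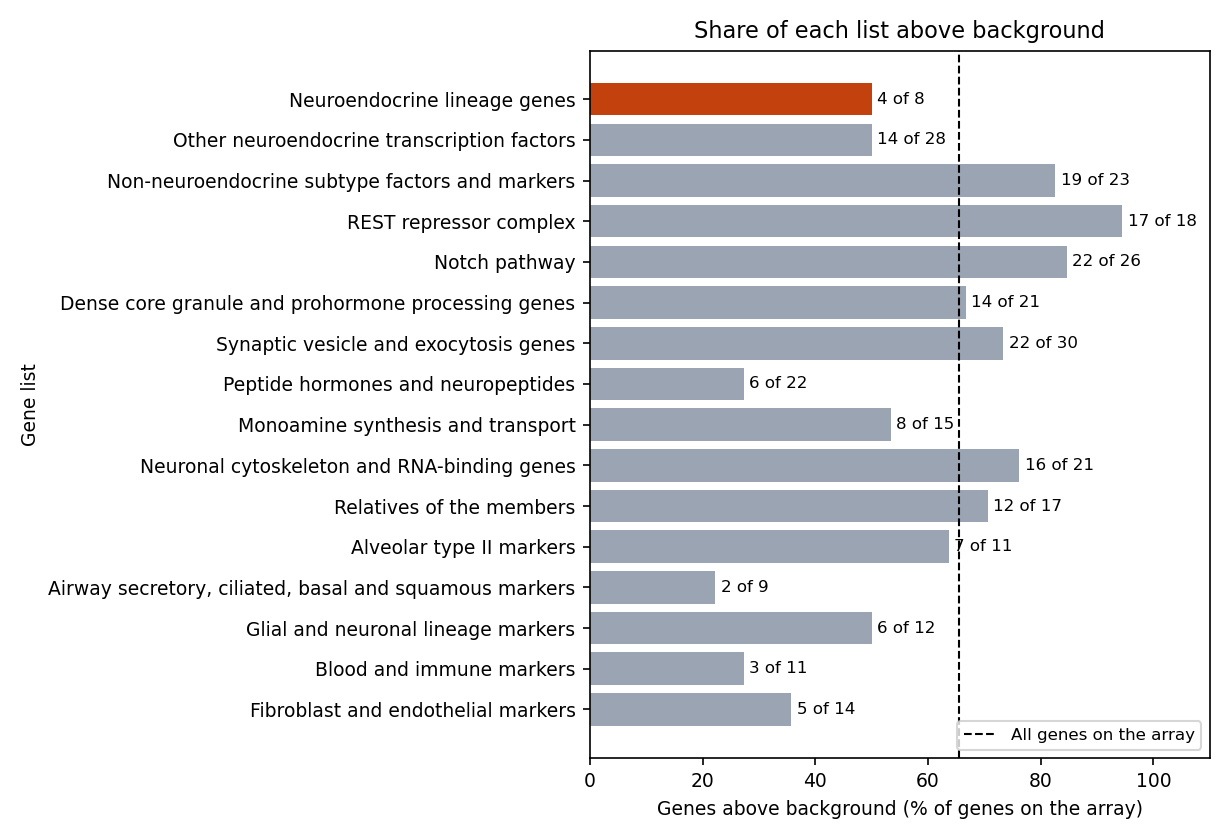
Share of the genes on the array that had a probe set above background on at least 1 array, for the neuroendocrine lineage genes (orange) and 15 other lists (grey), with counts beside the bars; the dashed line is the share of all genes, 65.5%. The neuroendocrine lineage genes stand at 4 of 8, the REST repressor complex list at 94.4% and the peptide hormones at 27.3%.

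REST and the genes listed with it were mostly above background. REST, the zinc finger repressor of neuronal genes, had a signal of 267 on the FDFT1 array and 227 on the control array, a difference of 0.34 (error 0.22). Its second measured probe set, 12.3 on the FDFT1 array and 10.2 on the control array, was within background on both. The third had 8.26 on the FDFT1 array and 10.98 on the control array, above background on the control array alone. The genes of the REST list were above background for 17 of 18, REST included, against 65.5% of all genes. RCOR1, the CoREST scaffold, was at 0.58 (721 on the FDFT1 array, 519 on the control array, error 0.16) with 2 of 2 probe sets higher. PHF21A, a histone reader of the same complex, was at 0.64 on its brightest probe set and at -0.65 without _x_at and _s_at probe sets. SIN3B, a corepressor scaffold, was at -0.71 (103 on the FDFT1 array, 182 on the control array, error 0.22) with 1 of 3 probe sets higher, and EHMT2, a histone methyltransferase, at -0.40 with 1 of 2. HDAC1 had a signal of 2882 on the FDFT1 array and 3142 on the control array, a difference of -0.02. The list had 6 genes above 0 and 11 below, with a median of -0.03 and none at 2-fold.

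Notch pathway genes were above background for 22 of 26, against 65.5% of all genes. HES1, a repressor induced by Notch, had 267 on the FDFT1 array and 327 on the control array, a difference of -0.18 (error 0.22), with 1 of 2 probe sets higher. RBPJ, the DNA-binding partner of Notch, had 999 on the FDFT1 array and 1194 on the control array, a difference of -0.15. The receptors NOTCH3 and NOTCH4 were at -0.66 (41.9 on the FDFT1 array, 71.4 on the control array, error 0.30) and 0.42 (27.1 on the FDFT1 array, 21.8 on the control array, error 0.48), the ligand JAG1 at 0.43 and LFNG, a glycosyltransferase that tunes Notch, at -0.46. The median was -0.07 over 21 measured genes, or 0.0084 without _x_at and _s_at probe sets. By more than the error 3 genes were higher and 5 lower, against 16.6% and 16.5% of all measured genes, and none was at 2-fold.

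Genes linked to lung cancers outside the neuroendocrine class had signal above background in 19 of 23 cases, against 65.5% of all genes. YAP1, the Hippo pathway coactivator that is usually low in neuroendocrine small cell carcinoma, had a signal of 1556 on the FDFT1 array and 1371 on the control array. Its difference was 0.29 (error 0.16) on this probe set and 0.07 as the mean of 3. POU2F3, the tuft cell factor, was within background, at 0.368 or less on the FDFT1 array and 5.93 or less on the control array. VIM, vimentin, had 8162 on the FDFT1 array and 8101 on the control array. CAV1, caveolin-1, was at 0.81 with both probe sets higher, at a signal of 27.6 on the FDFT1 array and 17.0 on the control array (error 0.48). TEAD2, a YAP1 partner, was at -0.47 (132 on the FDFT1 array, 196 on the control array, error 0.22) with 0 of 4 probe sets higher. ASCL2, a factor of tuft cells, was at 0.29 and AVIL, a tuft cell actin-binding protein, at -0.66, both against the floor. ASCL2 is also counted in the list of other neuroendocrine transcription factors. The list's median was 0.11 over 18 measured genes, with 8 higher and 2 lower by more than the error and none at 2-fold. Of all measured genes 16.6% were higher and 16.5% lower by more than the error. With values as deposited the median was 0.0084, with 2 higher and 5 lower, against 9.34% and 30.8% of all measured genes. After quantile scaling 8 of 18 were higher and 2 lower, against 15.8% and 16.9% of all measured genes. Loess gave 6 higher and 2 lower, against 16.05% and 16.6%. The mean of probe sets gave 3 higher and 2 lower of 18, against 12.9% and 13.6%.

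**Figure D4:**
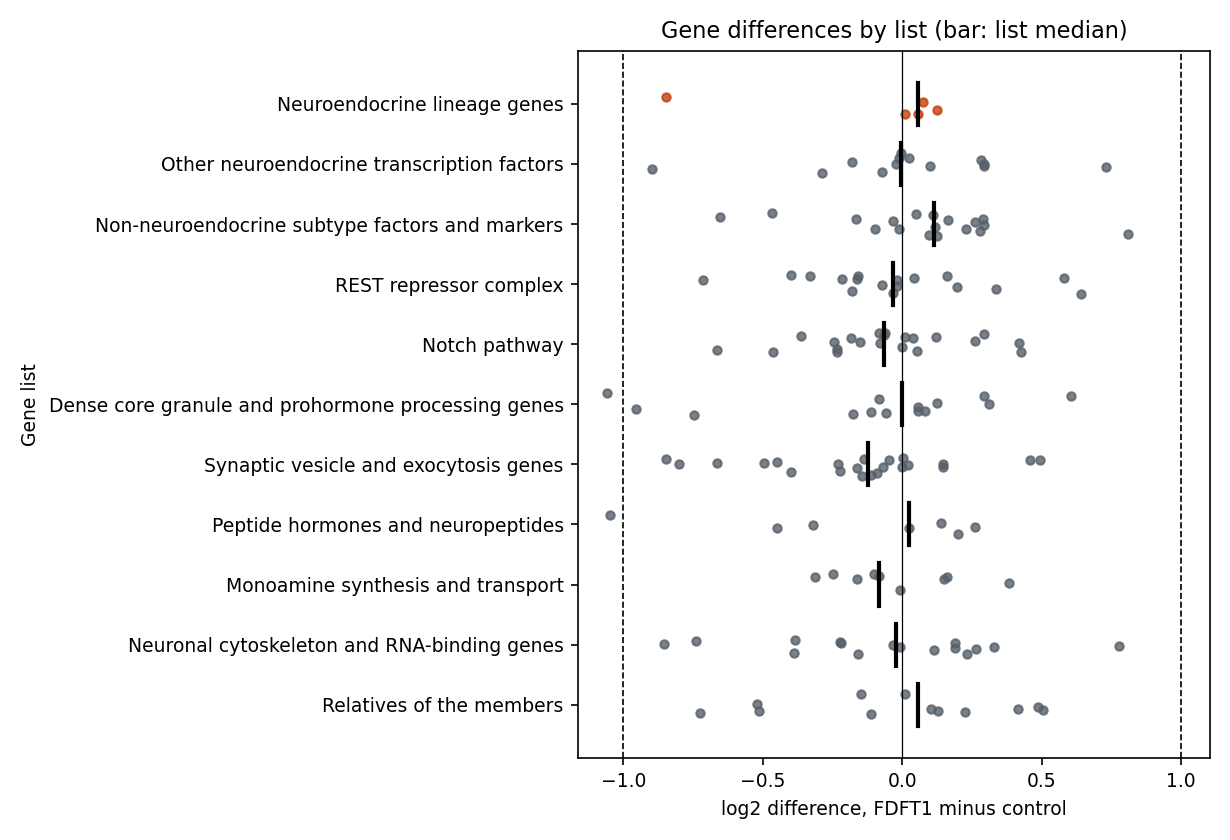
The log2 difference (FDFT1 minus control) of each measured gene, for the neuroendocrine lineage genes and the 10 pathway lists, with 1 point per gene, a bar at the list median and dashed lines at 2-fold; vertical jitter within a list has no meaning. The medians of the lists drawn run from -0.12 for synaptic vesicle genes to 0.11 for the non-neuroendocrine list, and among the neuroendocrine lineage genes SYP alone lies apart, at -0.85.

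Relatives of the members were above background for 12 of 17 genes, against 65.5% of all genes. UCHL3, a hydrolase related to UCHL1, had a signal of 719 on the FDFT1 array and 769 on the control array. NCAM2, CHL1 and INSM2 were within background. ENO1, the enolase of most tissues, had a signal of 9469 on the FDFT1 array and 9484 on the control array, while ENO2 was within background. The difference of ENO1 was 0.10 (error 0.097) with 3 of 3 measured probe sets higher, and -0.0024 as deposited. Among adhesion molecules of the NCAM1 superfamily, NRCAM was at 0.51 (65.1 on the FDFT1 array, 49.4 on the control array, error 0.30), 1 of its 2 probe sets being higher, and L1CAM at -0.72 (24.8 on the FDFT1 array, 44.2 on the control array, error 0.30). SYPL2, a synaptophysin relative known from muscle, was at 0.49 and GAD1, a decarboxylase of neurons, at -0.52.

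The labelled cell type was checked against its markers. Of 11 type II alveolar markers on the array, 7 were above background, against 65.5% of all genes. SFTPD, NAPSA, SLC34A2 and PGC, which encode proteins of type II or other secretory cells, were within background, at 7.26 or less on the FDFT1 array and 4.71 or less on the control array. Those above it include LPCAT1, a surfactant lipid enzyme, with 787 on the FDFT1 array and 934 on the control array, and ABCA3, the lamellar body transporter, with 55.6 on the FDFT1 array and 79.9 on the control array. LAMP3, another lamellar body protein, had 58.8 on the FDFT1 array and 53.0 on the control array. SFTPC, the most specific marker of the type, had 16.9 on the FDFT1 array and 29.3 on the control array on the 1 of its 5 probe sets above background. SFTPB, another surfactant protein, had 35.3 on the FDFT1 array and 32.0 on the control array on the brighter of the 2 of its 4 probe sets above background. Blood and immune markers were above background for 3 of 11 genes, with summed signals of 156 on the FDFT1 array and 151 on the control array. Fibroblast and endothelial markers were above background for 5 of 14, with summed signals of 1214 on the FDFT1 array and 1141 on the control array. Glial and neuronal lineage markers were above background for 6 of 12, with summed signals of 1182 on the FDFT1 array and 1305 on the control array, and include OLIG2, a glial factor, at 124 on the FDFT1 array and 176 on the control array. Airway and squamous markers were above background for 2 of 9. MUC5AC, a mucin of airway goblet cells, had 10.1 on the FDFT1 array, under the floor, and 26.7 on the control array, a difference of -1.08 (error 0.48) with 1 of 2 measured probe sets higher. Fewer cells of a type and less RNA per cell cannot be told apart in such bulk samples.

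The arrays as a whole were close but not at an equal level. The median signal of all 54675 probe sets was 12.1 on the FDFT1 array and 12.3 on the control array, and the means trimmed by 2% at each end were 142 on the FDFT1 array and 151 on the control array. Precision here is limited by the number of arrays, 1 in each group.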

How the data were processed

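Labelled cRNA from 6 µg of total RNA of each line was hybridised to 1 array per sample, per the labels' protocols. The authors deposited a linear intensity for each probe set, made with MAS5 per the submitters' processing notes. The version of MAS5, its scaling target and its detection calls are not stated in the labels. MAS5 subtracts mismatch signal, which makes low values unstable.

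Later steps ran under Python 3.11.15 with the packages statsmodels 0.14.6, matplotlib 3.10.9, scipy 1.17.1, pandas 2.3.3 and numpy 2.4.6. The 62 control probe sets were left out. Arrays were centred, a floor was set at the median centred signal, and differences were taken on the log2 scale, FDFT1 minus control. The steps were tested on simulated data, with changes placed only in bright genes. Recovery was checked only there, so dimmer genes such as SYP, NCAM1 and CHGA were not covered. Names came from the platform annotation, and only probe sets with 1 gene symbol were used. All member probe sets are described; of each other list, the brightest gene and up to 2 measured genes at each end were eligible to be named, with 11 genes fixed singly. For the airway, glial and neuronal, blood and immune, and fibroblast marker lists, counts are given in their place, with OLIG2 and MUC5AC named. VAMP2, SNAP25, UCHL3 and the genes named as within background were chosen after their values were seen. The members and lists were chosen with earlier results of these data known. Gene positions are RefSeq, GRCh38.p14. Alternatives were other scalings, floors, background levels, probe set choices and fold thresholds.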

Additional observations from a re-analysis of the deposited data

How the results depend on the processing

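The count of 5 member probe sets above background was 6 with the median of all signals as the level, which adds 1 of NCAM1, and 5 with the 99th percentile of the receptor genes or with olfactory receptors alone. It was 3 with the 75th percentile of all signals, a level of 99.4 that leaves UCHL1 and CHGB, and 3 without _x_at and _s_at probe sets, which removes 1 each of CHGA and UCHL1. On both arrays it was 4. The count of 0 members at least 2-fold different stayed at 0 with values as deposited, quantile or loess scaling, the higher floor, the mean of probe sets, fewer probe sets and a 3-fold threshold. It was 1 at a threshold of 1.5-fold, which is SYP, and 1 without a floor, which is NCAM1 at 1.93 from signals within background. The median difference of the members ranged from -0.21 without _x_at and _s_at probe sets, where 3 members are left, to 0.07 with the higher floor. Over 79 measured genes, which are those the naming rule covers, described or not, with VAMP2, SNAP25 and UCHL3, 446 of 485 values under an alternative moved by less than the probe-set error and none that was 2-fold changed sign. Whole-array counts moved more: 45 genes were higher and 106 lower by 2-fold as deposited, and 508 and 325 without a floor, since dim signals then count in full. No paired analysis was possible because each group has 1 sample. Signals near background limit SYP and NCAM1.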
